A study of Homo sapiens with 6 samples.

Results

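Membrane transporters of the solute carrier (SLC) and ATP-binding cassette (ABC) superfamilies were examined in U87MG cells, an established human glioblastoma line, with and without a short hairpin RNA (shRNA) against CREPT. CREPT is the product of RPRD1B and associates with RNA polymerase II. Members were every row of the expression table whose symbol begins with SLC and a digit, or with ABC, a letter from A to G and a digit. Symbols with a hyphen (2 rows) and SLC1A3, SLC2A3 and ABCA1 were left out, which left 31 of the 1630 listed genes. Of these, 28 are SLC genes, 3 are ABC genes, and 2 (SLC7A5P2 and SLC6A10P) are pseudogenes. The 2 groups were U87MG carrying the control hairpin (shControl, genotype NC) and U87MG carrying the CREPT hairpin (shCREPT, genotype CREPT knockdown), with 3 libraries each. The labels state neither whether the libraries came from separate cultures nor whether the 3 shCREPT libraries carried the same hairpin, so the p-values cover only library-to-library spread, and that may be technical. The table has no row for RPRD1B, and the level of the target was not analysed here.

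SLC proteins move solutes across membranes by facilitated diffusion or by coupling to ion gradients, mostly sodium, protons or chloride, and each family has its own substrates. ABC transporters use ATP hydrolysis to move lipids, drugs and conjugates, usually outward. In glioma cells, transporters of amino acids, glucose and lactate are known for supplying fuel and for acid and redox balance, and in astrocytes they clear glutamate and return glutamine to neurons.

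The table holds only genes that the authors marked as significant. No absolute log2 fold change in the authors' deposited table is under 1, and the largest adjusted p there is 0.0497. Each gene had therefore been picked for the contrast examined here, so the tests below describe listed genes and are no separate evidence that they differ. Values are the authors' normalized expression values, whose unit and depth are not stated, and levels are compared between libraries of the same gene only. The sum of listed values per library ranged from 31893.69 to 33330.8. In RNA from a whole culture, fewer cells carrying a transcript and less of it per cell cannot be told apart. Of 9 glioma and astrocyte markers, 3 had a row, GFAP, S100B and SLC1A3, and all 3 were lower in shCREPT, SLC1A3 without a call after median-of-ratios rescaling, which centres the typical listed gene near no change. Their summed values were 498 to 528 in shControl and 72.5 to 88.9 in shCREPT. GFAP made up most of these sums, with means of 434 in shControl and 45.5 in shCREPT. None of the 5 myeloid and none of the 3 T cell markers had a row, which does not tell whether they were expressed. Of the other 19 markers, 1 neuronal (NEFL), 1 oligodendrocyte lineage (PDGFRA), 2 endothelial (CDH5 and KDR) and 1 fibroblast marker (COL1A2) were called lower, and the rest were not tested or had no row. The summed values of these 5 were 1429 to 1467 in shControl and 512 to 571 in shCREPT, and none of these 8 markers was at 0 in all 6 libraries. COL1A2 made up most of the sums of the 5, with means of 1093 in shControl and 467 in shCREPT. KDR was not called after rescaling. The part of these shifts in the transporter values was not tested.

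In shCREPT cells the glutamine transporter SLC38A3 fell from a mean of 96.3 to 6.63, the largest fall on the log2(value + 1) scale among the tested members. The sugar transporters SLC2A10 and SLC2A12, the fatty acid importer SLC27A6, the anion exchanger SLC4A3 and the monoamine transporter SLC29A4 were also lower, as was the fatty acid importer SLC27A1, whose call was lost under another scaling. The reduced folate carrier SLC19A1, the conjugate exporter ABCC2 and the lysosomal peptide transporter SLC15A3 were higher. Values were compared as log2(value + 1) with limma over all listed genes that reached 1 in at least 3 libraries, and a gene was called at a Benjamini-Hochberg adjusted p under 0.05. With this pseudocount, changes of low genes come out too small. Of the 31 members, 22 passed that filter and all 22 were called, against 97.9% of all 1184 genes tested. Higher calls numbered 9 of 22 (40.9%), against 40.6% of all tested genes, and lower calls 13 of 22 (59.1%), against 57.3%. Both shares lie near the background of the table and say nothing particular to transporters. The groups did not overlap in any of the 22, against 96.8% of tested genes. The median log2 difference was −0.80 over the 22 members and −0.76 over all tested genes. A low gene could pass the filter by being high in 1 group alone. ABCA13, SLC16A6 and SLC47A1 passed in that way, with every value of the other group under 1. SLC7A5P2 also needed shCREPT to pass, as only 1 shControl library, at 1.03, reached 1. SLC27A6 and SLC31A2 each had 1 library under 1 in their lower group. In the authors' deposited table, which includes the 9 members under the filter, 13 of the 31 are marked up (41.9%, against 40.3% of listed genes) and 18 down (58.1%, against 59.7%). Median-of-ratios rescaling over the listed genes ended the call of 6 of the 13 lower members, and this is given beside each. All listed genes had been selected as changed, and most were marked down, so no set of unchanged genes anchors this rescaling. A call lost under it therefore cannot decide whether a fall depends on the scaling. With 3 libraries against 3, an exact two-sided permutation test of a single gene could not go below 0.1.

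**Figure D1:**
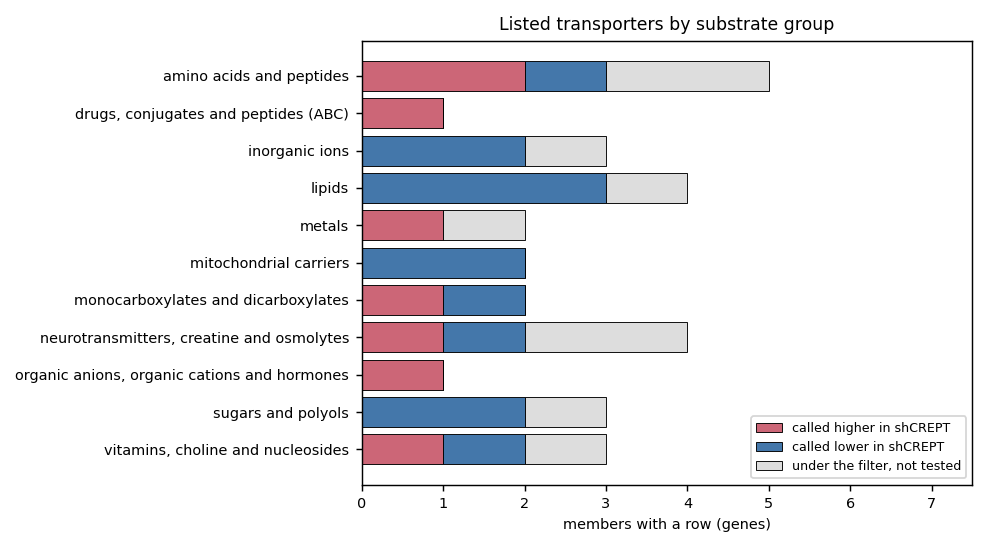
Horizontal bars give the number of listed transporters (30 in all) in each of 11 substrate groups, divided into genes called higher in shCREPT, called lower, and under the filter and therefore not tested. Every tested gene was called, with 3 lower calls in the lipid group and 2 higher and 1 lower in the amino acid and peptide group.

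The amino acid and peptide group held 5 members, of which SLC38A3 was called lower, SLC15A3 and SLC7A5P2 were called higher, and SLC15A2 and SLC43A1 were too low to be tested. SLC38A3 (also SNAT3 or SN1; chromosome 3, 50205246 to 50221486, GRCh38) carries glutamine with sodium and in exchange for protons, and it is known from astrocytes, liver and kidney. Its values were 100.78, 91.68 and 96.39 in shControl and 5.43, 6.1 and 8.37 in shCREPT. Every shControl library stood far above every shCREPT library. The mean was 14.5-fold lower in shCREPT, with a log2 difference of −3.69 ± 0.15 (SE; limma adjusted p = 5.22e-06). It was the only listed gene of the 11 annotated in its family.

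SLC15A3 (PHT2; chromosome 11, 60937084 to 60952530) moves histidine and small peptides out of lysosomes and is known from innate immune cells. It read 6.61, 7.61 and 9.51 in shControl and 15.97, 17.03 and 14.15 in shCREPT, a 1.99-fold higher mean. Its log2 difference was 0.92 ± 0.14 (SE; limma adjusted p = 0.000678). TMEM132A, on the opposite strand, overlaps the 3′ end of SLC15A3 and also read higher, with 26.77, 29.32 and 26.65 in shControl and 70.29, 70.07 and 69.78 in shCREPT. The labels do not state a stranded library, so reads in the shared stretch could count for either gene.

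SLC7A5P2 is a processed pseudogene of SLC7A5, the large neutral amino acid transporter, which has no row. It was listed at 0, 0 and 1.03 in shControl and at 3.38, 2.18 and 7.04 in shCREPT, so the shCREPT libraries spread over a 3-fold range. The log2 difference was 1.93 ± 0.41 (SE; limma adjusted p = 0.00345). SLC7A5P2 would not have passed the filter without shCREPT, so its call adds nothing to these values. Reads of near-identical copies can be divided in several ways, and this value is uncertain for that reason. SLC7A5P2 also lies wholly within SMG1P3, a pseudogene on the same strand without a row, so reads there could count for either gene. None of the 14 annotated SLC7 genes had a row. SLC43A1 (LAT3), a carrier of branched-chain and other neutral amino acids, read 0.13, 0.2 and 0.41 against 0.66, 0.6 and 0.9 in shCREPT. The peptide importer SLC15A2 (PEPT2) read 0.86, 0.52 and 0.47 in shControl and 0.78, 0.55 and 1.23 in shCREPT, and its groups overlapped.

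Both tested members of the sugar group fell. SLC2A10 (GLUT10; chromosome 20, 46709487 to 46736347) and SLC2A12 (GLUT12; chromosome 6, 133988697 to 134052636) are facilitative transporters of the glucose transporter family. SLC2A10 read 11.88, 12.8 and 13.19 in shControl and 3.49, 3.03 and 3.88 in shCREPT. The lowest control value was above 3 times the highest knockdown value. The mean was 3.64-fold lower, with a log2 difference of −1.61 ± 0.10 (SE; limma adjusted p = 1.51e-05). SLC2A12 went from 4.50 ± 0.210 to 1.31 ± 0.136 (SD, n = 3), 3.44-fold lower, with a log2 difference of −1.25 ± 0.08 (SE; limma adjusted p = 1.84e-05). SLC5A2, the sodium-coupled glucose transporter of the kidney (SGLT2), was listed at 0.05, 0 and 0 in shControl and at 0.23, 0.19 and 0.17 in shCREPT. It fell under the filter, and the authors' deposited table marks it up by 3.49 on the log2 scale.

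The lipid group held 4 members, and its 3 tested members fell. SLC27A1 (FATP1; chromosome 19, 17468769 to 17506168) promotes fatty acid uptake and links fatty acids to coenzyme A. It read 21.01, 21.66 and 23.82 in shControl and 9.71, 9.48 and 10.89 in shCREPT, a 2.21-fold lower mean. The log2 difference was −1.07 ± 0.09 (SE; limma adjusted p = 4.51e-05), and the call was lost after rescaling (−0.24, limma adjusted p = 0.0522). SLC27A6 (FATP6), the fatty acid transport protein known from heart, read 3.72, 5.69 and 3.79 against 1.02, 1.07 and 0.71, 4.71-fold lower (log2 difference −1.47 ± 0.16, SE; limma adjusted p = 0.000139). These 2 were the only listed genes of the 6 annotated in the SLC27 family. ABCA13, a very large member of the lipid-moving ABCA family, read 1.14, 1.23 and 1.26 against 0.34, 0.21 and 0.38 (log2 difference −0.76 ± 0.09, SE; limma adjusted p = 0.000155), and it passed the filter only through shControl. ABCB4, which moves phosphatidylcholine to the outer leaflet, read 0.54, 0.44 and 0.71 in shControl and 1.23, 1.09 and 0.82 in shCREPT and was not tested.

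For inorganic ions, SLC4A3 and SLC26A2 were called lower and SLC9A2 was not tested. SLC4A3 (AE3; chromosome 2, 219627327 to 219641980) exchanges chloride for bicarbonate and is known from brain and heart. It read 9.08, 7.67 and 9.2 in shControl and 3.54, 3.47 and 3.16 in shCREPT, 2.55-fold lower (log2 difference −1.13 ± 0.10, SE; limma adjusted p = 4.28e-05). SLC26A2 (chromosome 5, 149960737 to 149993455), the sulfate transporter that serves proteoglycan sulfation in cartilage, read 9.27, 9.18 and 7.78 against 3.64, 3.95 and 4.27. Its mean was 2.21-fold lower (log2 difference −0.97 ± 0.10, SE; limma adjusted p = 9.81e-05), a call lost after rescaling (−0.22, limma adjusted p = 0.0887). In both genes each control library stood above each knockdown library. SLC9A2, a sodium-proton exchanger of epithelia, read 0.03 to 0.09 in shControl and 0.14 to 0.28 in shCREPT, with a log2 fold of 2.01 in the authors' deposited table.

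SLC25A43 and SLC25A45, proteins of the mitochondrial carrier family, were both called lower. SLC25A43 (chromosome X, 119399060 to 119454478) read 13.73, 12.86 and 13.73 against 5.83, 6.46 and 7.62, 2.03-fold lower (log2 difference −0.93 ± 0.11, SE; limma adjusted p = 0.000171). SLC25A45 went from 2.44 ± 0.465 to 1.27 ± 0.225 (SD, n = 3; log2 difference −0.59 ± 0.13, SE; limma adjusted p = 0.00366). Both of these falls lost their call after rescaling, with limma adjusted p of 0.326 and 0.822.

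The vitamin, choline and nucleoside group held a rise and a fall. SLC19A1 (the reduced folate carrier; chromosome 21, 45493572 to 45544411) brings folates and the drug methotrexate into cells. It read 4.99, 6.24 and 8.7 in shControl and 15.28, 15.29 and 15.82 in shCREPT. The shCREPT libraries lay close together, while the control libraries spread more widely. The mean was 2.33-fold higher, with a log2 difference of 1.14 ± 0.17 (SE; limma adjusted p = 0.00069). COL18A1, on the opposite strand and without a row, overlaps the 3′ end of SLC19A1 up to position 45513720. Reads in that stretch could count for either gene. SLC29A4 (PMAT or ENT4; chromosome 7, 5274369 to 5306870) belongs to the nucleoside transporter family by sequence and carries monoamines such as serotonin and dopamine. It read 6.26, 5.21 and 6.43 against 2.19, 1.97 and 1.74, 3.03-fold lower (log2 difference −1.23 ± 0.11, SE; limma adjusted p = 4.7e-05). SLC28A3, a concentrative nucleoside transporter, read 0.42, 0.92 and 0.55 in shControl and 0.48, 0.29 and 0.1 in shCREPT, so its groups overlapped, and it was not tested.

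Among carriers of neurotransmitters, creatine and osmolytes, SLC6A8 was called lower and SLC6A12 higher. SLC6A8 (chromosome X, 153688099 to 153696593), the creatine transporter, read 98.34, 72.13 and 84.1 in shControl and 40.03, 33.98 and 50.15 in shCREPT. Its libraries varied within both groups, and the lowest control value was still above the highest knockdown value. The mean was 2.05-fold lower, with a log2 difference of −1.02 ± 0.18 (SE; limma adjusted p = 0.00117), and the call was lost after rescaling (−0.15, limma adjusted p = 0.433). PNCK, a kinase gene on the opposite strand, overlaps the 5′ end of SLC6A8 and was lower as well, with 1.66, 2.54 and 2.59 against 0.41, 0.69 and 0.55. SLC6A10P, a pseudogene copy of SLC6A8, went from 0.58, 0.46 and 0.69 to 0.27, 0.15 and 0.31 and was not tested. How reads were divided between the copies is not stated.

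SLC6A12 (BGT1, a betaine and GABA carrier; chromosome 12, 190077 to 214570) and SLC6A13 (GAT2, a GABA and taurine carrier; chromosome 12, 220621 to 262873) are neighbours on the same strand, 6051 bases apart. The next closest listed pair, SLC43A1 and SLC15A3, lay 3421298 bases apart. SLC6A12 read 1.07, 1.27 and 1.01 in shControl and 1.97, 2.32 and 1.67 in shCREPT (log2 difference 0.49 ± 0.11, SE; limma adjusted p = 0.00382). SLC6A13 read 1.65, 0.42 and 0.91 in shControl and was listed at 0, 0.12 and 0 in shCREPT. Low SLC6A13 values thus stood beside higher SLC6A12 values in the same libraries. SLC6A13 was under the filter, and the authors' deposited table gives it a log2 fold of −5.06.

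The monocarboxylate transporter family had 2 listed members. SLC16A9 (MCT9, linked to carnitine and urate; chromosome 10, 59650761 to 59736002) read 5.08, 5.44 and 5.07 against 2.27, 2.23 and 2.91, 2.10-fold lower (log2 difference −0.84 ± 0.10, SE; limma adjusted p = 0.000213), a call lost after rescaling (−0.15, limma adjusted p = 0.227). SLC16A6 (MCT7, a ketone body exporter in liver) read 0.3, 0.48 and 0.89 against 1.36, 1.23 and 2.13, 2.83-fold higher (log2 difference 0.73 ± 0.19, SE; limma adjusted p = 0.0076). SLC16A6 passed the filter only through shCREPT, so its call adds nothing to these values. The lactate carriers SLC16A1 and SLC16A3 have no row.

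Export of drugs and conjugates was represented by ABCC2 and SLC47A1, both called higher. ABCC2 (MRP2; chromosome 10, 99782640 to 99852594) exports glucuronide and glutathione conjugates and several anticancer drugs. It read 1.51, 1.2 and 1.71 in shControl and 5.51, 5.25 and 6.86 in shCREPT, 3.99-fold higher. The log2 difference was 1.47 ± 0.13 (SE; limma adjusted p = 4.49e-05). SLC47A1 (MATE1), which exchanges organic cations for protons, read 0.1, 0.13 and 0.43 in shControl and 1.22, 1.6 and 1.7 in shCREPT (log2 difference 1.04 ± 0.14, SE; limma adjusted p = 0.000308), and it too passed the filter only through shCREPT. The efflux pumps ABCB1 and ABCG2 have no row. For metals, SLC31A2, a copper transporter of intracellular membranes, rose from 1.21 ± 0.301 to 2.43 ± 0.149 (SD, n = 3; log2 difference 0.64 ± 0.12, SE; limma adjusted p = 0.00165). SLC39A12, a zinc importer known from brain, read 0.51, 0.82 and 0.43 in shControl and was listed at 0, 0 and 0.05 in shCREPT, with a log2 fold of −5.29 in the authors' deposited table. It was not tested.

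**Figure D2:**
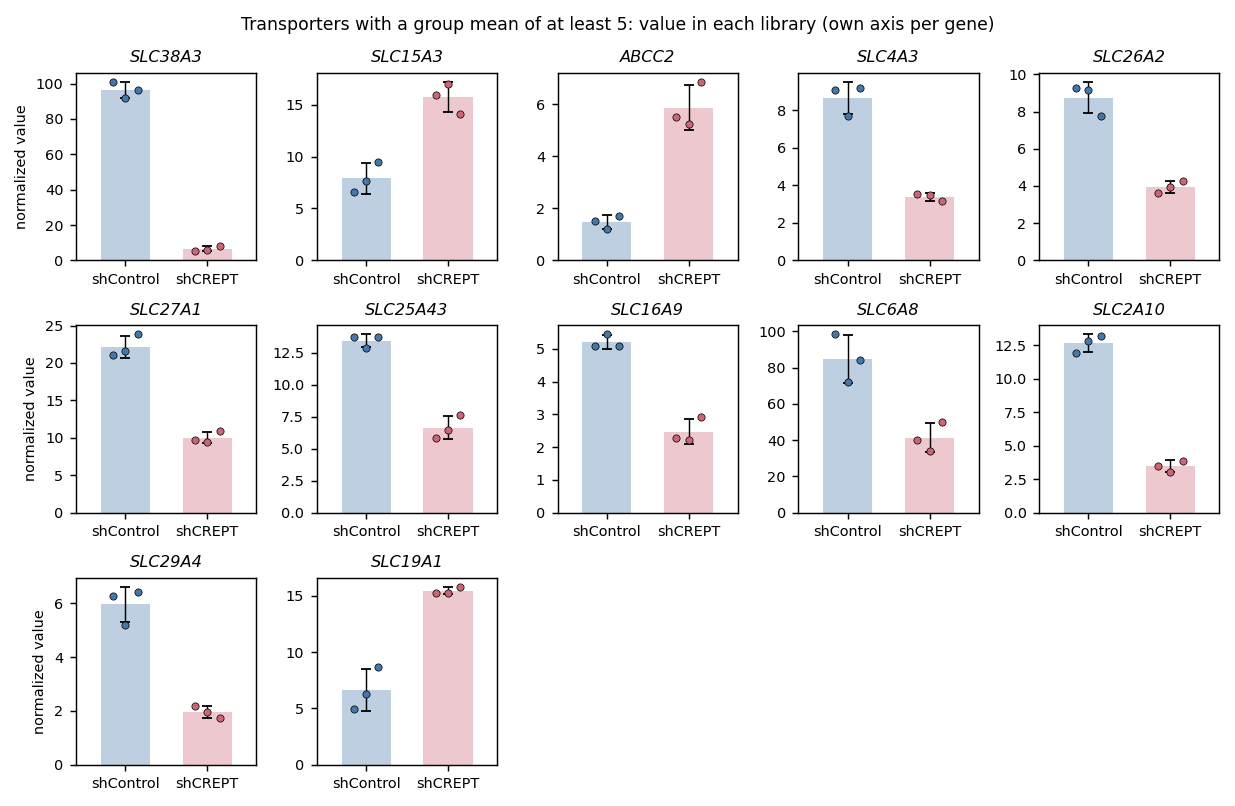
Each panel shows 1 of 12 transporters with a group mean of at least 5: points are libraries, bars are group means, error bars are the SD (n = 3), and each vertical axis is the authors' normalized value from 0 on its own scale. SLC38A3 stands apart with shControl values of 91.68 to 100.78 against 5.43 to 8.37, and in no panel do the groups overlap.

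Among the scalings tried, median-of-ratios rescaling changed calls of falls and of no rise. It lifted the shCREPT libraries by a log2 factor of 0.89 relative to shControl, applied before adding 1. The factors came from listed genes alone, and 57.3% of the tested genes had been called lower as deposited. With such a lift falls shrink and rises grow by construction, so the calls lost under rescaling do not tell whether those falls depend on normalization. The median difference of all tested genes moved from −0.76 to −0.12 and that of the 22 members to −0.14. The 9 higher members were called under it as well (40.9% of 22, against 41.6% of all tested genes). Lower calls went from 13 to 7 (31.8%, against 31.3%), so that 56.2% of the called members were higher, against 40.9% before. Over all tested genes the same share went from 41.5% to 57.0%. The rises came out larger, from 1.04 to 1.38 for SLC47A1, 1.47 to 2.10 for ABCC2, 0.92 to 1.72 for SLC15A3 and 1.14 to 1.93 for SLC19A1. Those of SLC6A12 (0.49 to 1.01), SLC31A2 (0.64 to 1.19), SLC16A6 (0.73 to 1.14) and SLC7A5P2 (1.93 to 2.34) did so too. SLC16A9, SLC25A43, SLC25A45, SLC26A2, SLC27A1 and SLC6A8 kept their sign and lost their call, with log2 differences of −0.03 to −0.24 and limma adjusted p of 0.0522 to 0.822. SLC38A3 (−2.86), SLC27A6 (−0.89), SLC2A10 (−0.85), SLC2A12 (−0.63), SLC29A4 (−0.55), ABCA13 (−0.41) and SLC4A3 (−0.39) were called lower under it too. No direction turned.

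**Figure D3:**
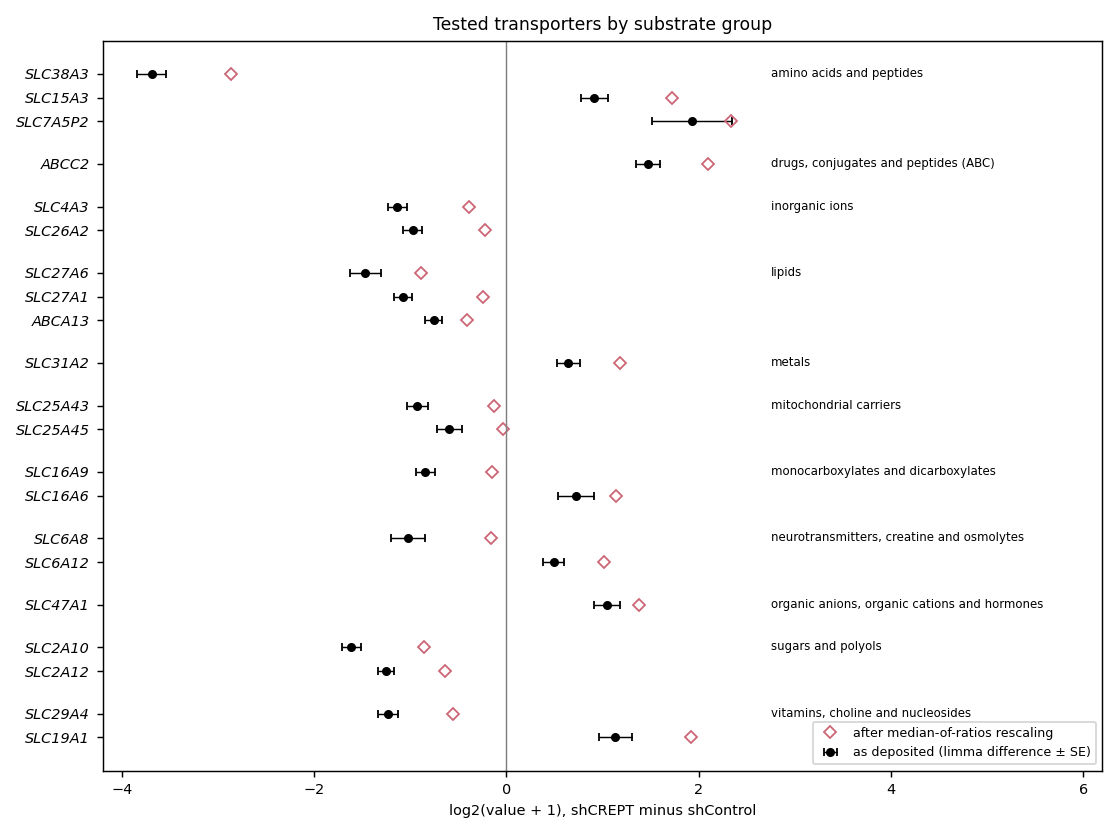
For 21 tested transporters, filled points give the difference in log2(value + 1), shCREPT minus shControl, with its SE from limma, and open diamonds give the same difference after median-of-ratios rescaling, grouped by substrate. Every diamond lies to the right of its point, from SLC38A3 (−3.69 to −2.86) to SLC7A5P2 (1.93 to 2.34), and none crosses 0.

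The 9 members under the filter were tested once the filter was dropped. Of these, 7 were called, 4 higher (ABCB4, SLC43A1, SLC5A2 and SLC9A2) and 3 lower (SLC39A12, SLC6A10P and SLC6A13), with limma adjusted p of 0.00166 to 0.0422. SLC15A2 (adjusted p = 0.291, limma) and SLC28A3 (adjusted p = 0.0785, limma) were not. Without the filter, 91.8% of all 1630 listed genes were called, 610 higher and 887 lower. Of the 1630, 1184 had passed the filter, so 91.8% is not the share among low genes alone.

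The ratio of mean values and the fold change in the authors' deposited table were close for members with a group mean of at least 5, where none of 13 differed by over 0.5 on the log2 scale. Over all listed genes with such a mean, 2.36% did. Among all 31 members 6 differed by more than that (19.4%, against 11.1% of all listed genes with a ratio), each with both means under 5. The authors' deposited table marks SLC15A2 down, at a log2 fold of −1.05, while the log2 ratio of its means was 0.47. SLC43A1, SLC6A12 and SLC47A1 had smaller ratios than the folds listed there: 1.55 against 2.72, 0.83 against 1.82 and 2.78 against 3.56. ABCA13 and SLC28A3 had log2 ratios of −1.96 and −1.12, against −2.63 and −1.91 in the authors' deposited table. The sources used here do not give how the authors computed the fold. Just inside their threshold of about 1 lay 9 members with an absolute log2 fold under 1.1, against 12.5% of all listed genes: ABCB4, SLC15A2, SLC15A3, SLC16A9, SLC19A1, SLC25A43, SLC25A45, SLC31A2 and SLC6A8. Genes outside the threshold have no row.

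**Figure D4:**
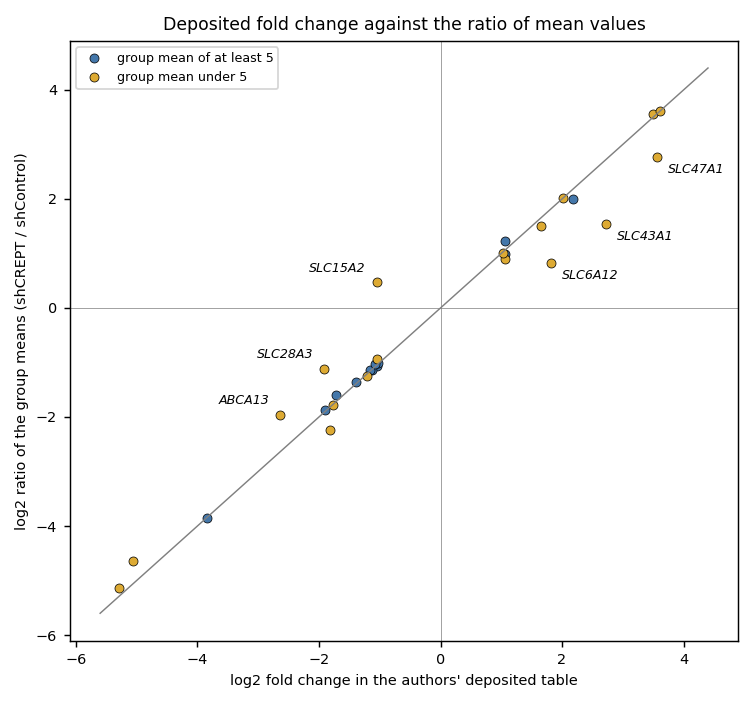
Each of 30 transporters is placed by the log2 fold change in the authors' deposited table (horizontal) and by the log2 ratio of its group means, shCREPT over shControl (vertical), with the line of equal values in grey. Genes with a group mean of at least 5 lie along the line, and the 6 named genes lie over 0.5 from it, with SLC15A2 at −1.05 and 0.47.

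Most transporters have no row. Of 416 protein-coding SLC and ABC genes that the symbol rule takes from the GENCODE v29 annotation, 29 have one (6.97%), against 6.12% of all 19951 protein-coding genes. By substrate the shares ran from 0 of 32 carriers of nucleotide sugars and acetyl-CoA to 4 of 26 lipid carriers (15.4%). Amino acid and peptide carriers had 4 of 55 (7.27%), inorganic ion carriers 3 of 61 (4.92%) and metal carriers 2 of 34 (5.88%). These shares are descriptions of the authors' selection. A missing row does not tell an unexpressed transporter from an unchanged one, or from one whose change missed the authors' thresholds.

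Of 65 related genes listed beside the transporters, covering other carriers, ion pumps, partner proteins, transcription factors and enzymes of the transported substrates, 8 had a row, and 2 were called higher and 5 lower. The organic anion carrier SLCO4A1 rose from 11.7 ± 0.735 to 28.2 ± 2.69 (SD, n = 3; log2 difference 1.20 ± 0.10, SE; limma adjusted p = 3.96e-05). TXNIP, an arrestin-like protein that restrains glucose transporters at the cell surface, fell 5.14-fold, from 64.3, 55.53 and 60.71 to 12.11, 10.07 and 12.95. Its log2 difference was −2.27 ± 0.12 (SE; limma adjusted p = 9.08e-06). The carbonic anhydrases CA9 and CA12, which supply bicarbonate and protons to acid-base carriers at the cell surface, were 2.46-fold and 2.04-fold lower (limma adjusted p = 8.49e-05 and 0.00163). Among the transcription factors MYC was 3.71-fold higher, and EPAS1 and SREBF1 were 2.04-fold and 2.95-fold lower (limma adjusted p at most 8.65e-05). After median-of-ratios rescaling EPAS1 and CA12 kept their sign and lost their call, and the other 5 were called in the same direction. The other 57 genes have no row, among them the monocarboxylate transporter partner BSG, the stress factor ATF4 and glutamine synthetase (GLUL).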

How the data were processed

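Per the file headers, the deposited table gives 1 normalized signal value for each library, with 2 decimals, beside the fold (a ratio) that the authors computed. It also gives the authors' log2 fold, p-value and adjusted p. The tools HISAT2 and HTSeq and the build GRCh38 are listed, without versions, per the submitters' processing notes. The sources used here do not give the normalization. Per the labels' protocols, libraries came from total RNA with a NEBNext Ultra kit. Values from 0.01 to 0.29, pooled over genes, took 28 to 29 of the 29 possible hundredths in each library. No common step of 1 read was seen. If the unstated unit scales by gene, the step differs by gene and pooling would hide it. Depth is unknown.

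Genes reaching 1 in 3 or more libraries were compared as log2(value + 1) with limma 3.58.1 in R 4.3.3 (no covariate, Benjamini-Hochberg over all 1184 tested genes). The step was also run on simulated data in which most genes did not change, unlike the listed genes. The design assumed a table of all genes, and the one analysed holds selected genes. The members, the 11 substrate groups and the related-gene list were chosen with earlier results of these data known. Values of 1 member and of 2 genes of the other lists are not reported here or drawn; the counts include them. Every other member is named, and those tested with a group mean of at least 5 have all library values; other members' values were added. Coordinates came from GENCODE v29 on GRCh38, which matched 30 of 31 members (not SLC6A10P). Overlaps with genes on the opposite strand were found for 18 members, 2 of them with a listed gene. The labels do not state a stranded library, so the limit on reads in a shared stretch holds for all 18. No library repeated another: each pair had different values in most genes (lowest share 96.0%). Alternatives were other pseudocounts, filters and scalings, limma options, the replicate number as a block and each library left out. Tables used Python 3.11.15 with pandas 2.3.3, and figures matplotlib 3.10.9.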

Additional observations from a re-analysis of the deposited data

How the results depend on the processing

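Of the 22 tested members, leaving out any 1 library, limma's trend and robust options, a pseudocount of 0.1 or 5 and quantile normalization kept 22 called, 9 higher and 13 lower, with medians of −0.75 to −0.86 when a library was left out. The stricter minimum of 10 in 3 libraries left 8 members to test by construction and called all 8 (3 higher and 5 lower). Median-of-ratios rescaling called 7 lower. The median difference over the tested members was −1.03 with a pseudocount of 0.1, −0.35 with a pseudocount of 5, −0.34 with no filter, −0.97 with the stricter filter, −0.14 after median-of-ratios rescaling and −0.60 after quantile normalization; a larger pseudocount shrinks low genes by construction. None of the 22 changed sign under any of these settings; 6 lost their call, all by median-of-ratios rescaling. Deviations of libraries sharing a number had r of −0.109, 0.018 and −0.179, against −0.112 to 0.199 for other pairs, so the numbers were not taken as pairs. With the replicate number as a block 22 members were called and no call changed. Depth is unknown and sets no bound on the low members, whose values of 0 to about 2 carry 2 decimals.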
